A study of Mus musculus with 50 samples.

Results

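Caspase-8 and its adaptor FADD were compared as deletions in the intestinal epithelium of mice that lack Mlkl. The arrays labelled CASP8 IEC-KO Mlkl -/- (title numbers 6 to 10) were set against those labelled FADD IEC-KO Mlkl -/- (title numbers 11 to 15), chosen by genotype label alone, which gave 10 of the 50 arrays of the series. CASP8 IEC-KO mice carry an intestinal epithelial cell deletion of Casp8, FADD IEC-KO mice one of Fadd, and both groups share Mlkl -/-, a notation that names no tissue. The Cre driver is not named in the labels, and no group with Mlkl -/- alone was analysed here. Beside them stood Fadd fl/fl mice (title numbers 26 to 30), which carry the floxed Fadd allele with no label of deletion and with Mlkl intact, and the single knockouts CASP8 IEC-KO and FADD IEC-KO, each with 5 arrays in the number series 1 to 30 and 5 in the series 86 to 124. The labels do not say whether the number series are batches, and the floxed Casp8 group belongs to the series 86 to 124. FADD IEC-KO Zbp1 -/- mice also lack Zbp1, and FADD IEC-KO RIPK3 IEC-KO mice carry a further intestinal epithelial cell deletion of Ripk3. Each has 5 arrays, the former in the series 1 to 30 and the latter in the series 86 to 124. They and the floxed Casp8 group served for the spread within groups and for the values of Ermap and Muc1 over all groups.

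RNA came from colon tissue of mice described as 11 weeks old, with 10 to 12 weeks in the design text. The mice were kept under specific pathogen free conditions with a 12-hour light phase, and 100 ng of total RNA per sample was hybridised to a 1-colour whole-transcript microarray. The labels do not say that the 5 arrays of a group came from separate litters, so p-values measure the spread between arrays and not between litters. That spread is the one within groups, pooled over all 10 groups of the series unless a fit of fewer arrays is named. Bulk colon RNA also holds muscle, stroma and immune cells, and fewer cells of a type cannot be told apart from less RNA per cell.

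FADD brings caspase-8 to death receptors, and active caspase-8 both starts apoptosis and cleaves the kinases that would otherwise start necroptosis. In necroptosis RIPK3 phosphorylates MLKL, the protein that breaks the plasma membrane, and ZBP1, a nucleic acid sensor made in response to interferon, is one of the proteins that can engage RIPK3. In the colon, epithelium without FADD or caspase-8 is known to die and to provoke inflammation, and removal of Mlkl removes the membrane-breaking step for both deletions. The comparison asks what still differs between the deletions once that step is gone. The labels do not say whether the lines of mice share a genetic background. Deletion and mouse line therefore cannot be told apart between the double mutants.

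Stretches of promoters from 3 groups of genes described below are given first, namely type I interferon, clock and ribosome assembly genes. These lists held 1, 1 and 10 genes past the threshold in the fit over all 50 arrays, and the third was written after the values were seen. Of the genes whose stretches are shown, Nop2 alone passed in that fit. The sequences are those of RefSeq (assembly GRCm38.p6), 5′ to 3′ on the gene's own strand, from a window of 250 bases before to 50 bases after the start of each gene. Capitals mark every match to GAAA, any 2 bases and GAAA again, the core of the element bound by interferon regulatory factors, or its reverse complement, which overlap one another in some genes. The interferon-stimulated genes Isg15 (chr4:156200855-156200916, minus strand), Ifit1 (chr19:34640765-34640833, plus strand), Ifit3 (chr19:34583353-34583436, plus strand) and Oas1a (chr5:120907526-120907565, minus strand) hold it upstream of their starts.
Isg15: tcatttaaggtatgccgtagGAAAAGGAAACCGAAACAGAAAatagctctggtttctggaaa
Ifit1: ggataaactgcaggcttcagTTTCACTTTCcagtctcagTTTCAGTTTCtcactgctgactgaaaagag
Ifit3: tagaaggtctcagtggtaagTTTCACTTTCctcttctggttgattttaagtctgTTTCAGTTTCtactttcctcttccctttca
Oas1a: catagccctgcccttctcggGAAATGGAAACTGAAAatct
This element stood in 618 of the 15683 measured genes with a promoter entry (3.94%) and in 12 of the 18 such members of the type I interferon list (66.7%). It stood in 3 of 37 genes that were higher in CASP8 IEC-KO Mlkl -/- (8.11%) and in 1 of 36 that were lower, Apol9a (2.78%). A match is a description of these letters and not of a factor bound there.

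In the next set capitals mark CACGTG, the E-box read by the circadian factors CLOCK and BMAL1 and by MYC, which reads the same on both strands. The clock genes Ciart (chr3:95882247-95882364, minus strand), Per1 (chr11:69098763-69098808, plus strand) and Tef (chr15:81802526-81802571, plus strand) hold it, as does Nop2 (chr6:125131803-125131848, plus strand), a ribosome assembly gene.
Ciart: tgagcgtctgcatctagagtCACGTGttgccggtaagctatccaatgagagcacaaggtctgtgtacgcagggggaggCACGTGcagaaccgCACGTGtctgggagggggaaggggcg
Per1: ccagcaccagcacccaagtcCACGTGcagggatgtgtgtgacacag
Tef: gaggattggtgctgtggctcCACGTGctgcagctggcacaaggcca
Nop2: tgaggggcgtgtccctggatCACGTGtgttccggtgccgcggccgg
The E-box stood in 1451 of 15683 promoters (9.25%), in 5 of 15 of the clock list (33.3%), in 13 of 52 of the ribosome assembly list (25%) and in 0 of 18 of the type I interferon list. Among genes past the threshold it stood in 5 of 37 that were higher (13.5%) and 4 of 36 that were lower (11.1%).

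The targeted genes followed the labels. Casp8 had log2 signals of 8.95, 9.36, 9.07, 9.00 and 8.88 in CASP8 IEC-KO Mlkl -/- colons, against 10.74, 10.64, 10.63, 10.50 and 10.79 in FADD IEC-KO Mlkl -/- colons and 10.11 to 10.59 in Fadd fl/fl colons. All 5 arrays with the Casp8 deletion lay below all others, and the difference was −1.61 on the log2 scale (SE 0.112, limma, adjusted p = 4.14e-14). Fadd had 7.14, 7.37, 7.37, 7.15 and 7.54 in CASP8 IEC-KO Mlkl -/- colons, against 6.50, 6.36, 6.22, 6.33 and 6.40 in FADD IEC-KO Mlkl -/- colons and 7.12 to 7.61 in Fadd fl/fl colons. The arrays with the Fadd deletion were the low ones, without overlap (log2 difference 0.95, SE 0.114, adjusted p = 8.95e-07). Mlkl ran from 7.12 to 7.56 in CASP8 IEC-KO Mlkl -/- and from 7.00 to 7.33 in FADD IEC-KO Mlkl -/-, against 8.00 to 8.54 in Fadd fl/fl. Both double mutants lay below every floxed array and overlapped each other (difference between them 0.14, adjusted p = 0.866). The position of the probe sets relative to the deleted exons is not known here.

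The other necroptosis genes did not pass the threshold in the fit over all arrays. Zbp1 had 5.60, 6.08, 5.36, 6.10 and 6.37 in CASP8 IEC-KO Mlkl -/-, against 6.64, 6.90, 7.13, 6.65 and 6.73 in FADD IEC-KO Mlkl -/- and 5.36 to 5.82 in Fadd fl/fl. Every array of the Casp8 deletion lay below every array of the Fadd deletion, yet the difference of −0.91 (SE 0.269) had an adjusted p of 0.111. Ripk3 ran from 6.60 to 6.88 in CASP8 IEC-KO Mlkl -/- and from 6.98 to 7.34 in FADD IEC-KO Mlkl -/-, again without overlap (−0.42, adjusted p = 0.584). With only the arrays of the double mutants both genes passed, Ripk3 with an adjusted p of 0.0368 (limma). Zbp1 also passed with variance weights per group, and its lowest adjusted p over the alternative fits was 0.0111. Zbp1 stayed above the threshold in 18 of 20 alternative fits and Ripk3 in 19 of 20. Of the 21 measured members of a death signalling list, 1 was higher (Fadd) and 1 was lower (Casp8), against 0.215% and 0.241% of all genes. The median difference was −0.05, against 0.01 over all 19494 genes tested. Fas, Tnfrsf1a, Tradd, Cflar and Bid, which carry or restrain the death receptor signal, had differences between −0.05 and 0.19 and did not pass.

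**Figure D1:**
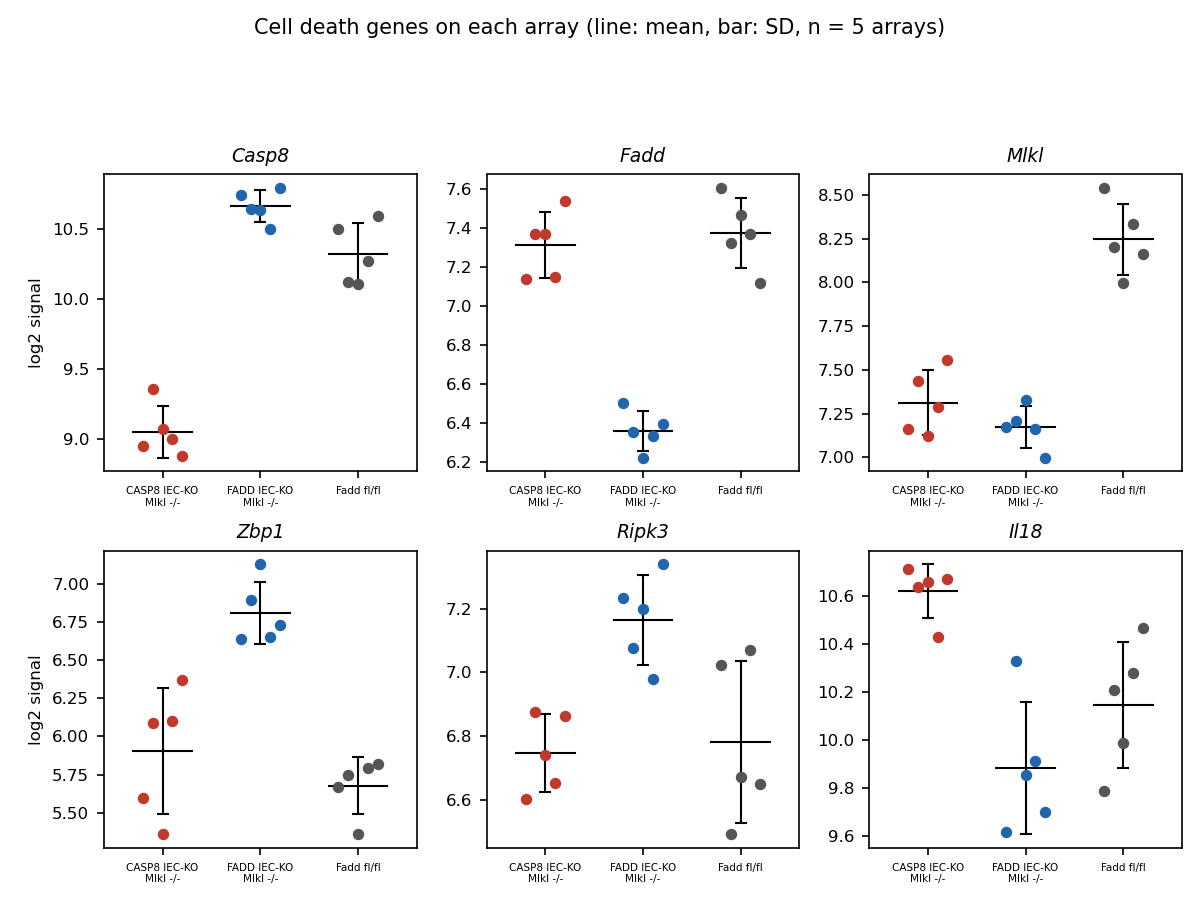
Log2 signal of Casp8, Fadd, Mlkl, Zbp1, Ripk3 and Il18 (vertical axis) on each of the 5 arrays of CASP8 IEC-KO Mlkl -/-, FADD IEC-KO Mlkl -/- and Fadd fl/fl (points; line, mean; bar, SD). Casp8 is low in the first group, Fadd in the second and Mlkl in both. Zbp1 and Ripk3 do not overlap between the double mutants but did not pass the threshold in the fit over all arrays. Both passed with only the arrays of the double mutants.

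In the fit over all 50 arrays a small share of genes separated the double mutants, and most differences were small. At an adjusted p under 0.05, 89 of 19494 genes differed (0.457%), 42 higher (0.215%) and 47 lower (0.241%) in CASP8 IEC-KO Mlkl -/-, and 2132 had an unadjusted p under 0.05. The count was 270 in a fit of the 10 double mutant arrays alone, with 60 of the 89 among them, and 731 with variance weights per group, with all 89 among them. Casp8 and Fadd were among the 89, which left 87. Differences of at least 2-fold were found for 2 genes higher (Ypel2 and Bco2) and 5 lower (Ermap, Ly6m, Casp8, B4galnt2 and Irf7), and the median size over the 89 was 0.51 on the log2 scale. The 5 and 5 arrays did not overlap for 75 of the 89, 36 higher and 39 lower. Over all genes, 462 had every CASP8 IEC-KO Mlkl -/- array above every FADD IEC-KO Mlkl -/- array (2.37%) and 504 had every one below (2.59%).

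The list of 89 depended on single arrays. Without CASP8 IEC-KO Mlkl -/- replicates 6, 7, 8, 9 or 10, the count was 16, 22, 10, 43 or 114, and without FADD IEC-KO Mlkl -/- replicates 11, 12, 13, 14 or 15 it was 15, 113, 23, 76 or 8. Besides Casp8 and Fadd, 4 genes passed in all 10 of these fits, namely Bhlhe40, Creb3l1, Farsa and Gpr19, while 28 of the 89 passed in at least 5. Each gene below is given with the number of these 10 fits in which it passed, and the 89 had the same direction in every fit that tested them. Counts of list members past the threshold come from the fit over all arrays unless another fit is named. Over all genes 0.457% passed in that fit, so 0 members past the threshold is no result about a list.

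The clock genes also separated the groups, and their values stand here because a score made from them served as a covariate for the other genes. The activators Arntl, Clock and Npas2 were averaged, and the average of 7 genes that run against them (Ciart, Dbp, Nr1d1, Nr1d2, Per2, Per3, Tef) was subtracted. This clock score was 1.70, 2.70, 2.67, 1.92 and 2.05 in CASP8 IEC-KO Mlkl -/- and −0.78, 1.20, −0.38, −0.62 and −0.17 in FADD IEC-KO Mlkl -/-. The groups did not overlap, FADD IEC-KO Mlkl -/- replicate 12 stood closest to the other group, and Fadd fl/fl ran from −1.31 to 1.74. With the score as a covariate 12 genes passed, 6 in each direction, and 9 of them were among the 89: Casp8, Fadd, Creb3l1, Crebl2, Farsa, Gpr19, Ift46, Irf7 and Tmed5. All 89 kept their direction in that fit. Casp8, Fadd, Creb3l1, Farsa and Gpr19 passed with the covariate and in each of the 10 fits that left out an array. The labels give no hour of collection, and hour and genotype cannot be told apart within these 10 arrays.

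Among the genes lower with the Casp8 deletion, Farsa, the catalytic subunit of phenylalanyl-tRNA synthetase, and Creb3l1, a membrane-bound transcription factor of secretory cells that is counted here among goblet cell genes, passed in each fit that left out 1 array and when the clock score was added. Without replicates 6 and 7 of CASP8 IEC-KO Mlkl -/- together, Farsa passed and Creb3l1 did not (adjusted p = 0.208). Farsa had 6.67, 6.91, 6.79, 7.00 and 6.83 in CASP8 IEC-KO Mlkl -/-, against 7.69, 7.32, 7.71, 7.35 and 7.54 in FADD IEC-KO Mlkl -/- and 6.92 to 7.37 in Fadd fl/fl. The highest Casp8-deleted array lay below the lowest Fadd-deleted one, and most floxed arrays lay between (−0.68, SE 0.114, adjusted p = 0.00231, 10 of 10 fits). Creb3l1 had 9.93, 10.04, 9.99, 10.22 and 10.38 in CASP8 IEC-KO Mlkl -/-, against 10.98, 10.63, 11.02, 10.57 and 10.91 in FADD IEC-KO Mlkl -/- and 10.53 to 10.92 in Fadd fl/fl. The Casp8-deleted arrays were also below all floxed arrays, although that contrast did not pass (−0.51, adjusted p = 0.146), and the double mutants differed by −0.71 (SE 0.132, adjusted p = 0.00869, 10 of 10 fits). Of the 20 goblet cell genes, Creb3l1 was the only one past the threshold, against 0.457% of all genes, and the list median was −0.10. Muc2, the main gel-forming mucin of the colon, differed by −0.05, and Spdef, a transcription factor of goblet cell maturation, by −0.40 (adjusted p = 0.0682).

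Ly6m and B4galnt2 were among the 5 falls of at least 2-fold. Ly6m, of the Ly6 family of membrane-anchored proteins, had 6.89, 8.24, 6.41, 7.88 and 7.22 in CASP8 IEC-KO Mlkl -/-, against 9.15, 8.57, 9.69, 9.44 and 9.67 in FADD IEC-KO Mlkl -/- and 6.83 to 9.58 in Fadd fl/fl. The double mutants did not overlap, but the floxed arrays spanned nearly the whole range of both (−1.97, SE 0.452, adjusted p = 0.0316, 4 of 10 fits). B4galnt2, which adds N-acetylgalactosamine to glycans of the gut epithelium, had 8.55, 9.27, 8.24, 9.02 and 9.03 in CASP8 IEC-KO Mlkl -/-, against 9.98, 9.83, 10.05, 9.76 and 10.24 in FADD IEC-KO Mlkl -/- and 9.29 to 10.23 in Fadd fl/fl. Every Casp8-deleted array was below every array of the other groups (−1.15 against FADD IEC-KO Mlkl -/-, SE 0.240, adjusted p = 0.018, 5 of 10 fits). Fa2h, which hydroxylates fatty acids of sphingolipids, ran from 8.84 to 9.00 in CASP8 IEC-KO Mlkl -/- and from 9.38 to 10.01 in FADD IEC-KO Mlkl -/-, against 8.58 to 9.85 in Fadd fl/fl. Its difference was −0.83 (adjusted p = 0.0457, 2 of 10 fits) and became −0.42 (adjusted p = 0.368) with the clock score as a covariate. Among 26 antimicrobial and epithelial stress genes Ly6m alone passed, against 0.457% of all genes, and the median was −0.07.

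Irf7, the transcription factor that amplifies type I interferon production, was lower with the Casp8 deletion. It had 7.91, 8.22, 7.64, 8.63 and 8.74 in CASP8 IEC-KO Mlkl -/-, against 9.52, 9.55, 9.51, 9.04 and 8.99 in FADD IEC-KO Mlkl -/- and 7.31 to 8.03 in Fadd fl/fl. The Fadd-deleted arrays were above all others, and the Casp8-deleted arrays reached from within the floxed range to above it (−1.10, SE 0.255, adjusted p = 0.0368, 3 of 10 fits). With the clock score as a covariate Irf7 passed with a difference of −1.37 (adjusted p = 0.0324). Apol9a, an interferon-induced apolipoprotein L gene, ran from 6.34 to 6.86 in CASP8 IEC-KO Mlkl -/- and from 6.90 to 7.64 in FADD IEC-KO Mlkl -/- (−0.69, adjusted p = 0.0451, 2 of 10 fits).

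Of 25 measured type I interferon genes Irf7 alone passed the threshold in the fit over all arrays, against 0.457% of all genes. All 25 had a negative difference, with a median of −0.54 against 0.01 over all genes. Zbp1, also on the list, passed with only the arrays of the double mutants and with variance weights per group. The mean of the list was 6.18, 6.30, 6.00, 6.19 and 6.40 in CASP8 IEC-KO Mlkl -/-, against 7.02, 7.14, 7.02, 6.55 and 6.57 in FADD IEC-KO Mlkl -/- and 5.90 to 6.16 in Fadd fl/fl. The double mutants did not overlap, the Casp8-deleted arrays ran from the floxed range upward, and no Fadd-deleted array lay within it. The arrays did not overlap for 10 of the 25 members, each with the Casp8-deleted arrays below, against 2.59% of all genes in that direction. Ifit1, which binds foreign RNA, had 5.30, 5.93, 4.74, 5.19 and 5.82 in CASP8 IEC-KO Mlkl -/- and 7.63, 7.58, 6.97, 6.01 and 6.55 in FADD IEC-KO Mlkl -/- (−1.55, SE 0.411, adjusted p = 0.0622). Oasl2, of the family of oligoadenylate synthetases, differed by −1.53 (adjusted p = 0.0682) and Isg15, a ubiquitin-like modifier, by −1.18 (adjusted p = 0.0715). Against Fadd fl/fl, 0 of the 25 passed in CASP8 IEC-KO Mlkl -/-, where 0.0462% of all genes passed. In FADD IEC-KO Mlkl -/- 7 of the 25 were higher, where 0.159% of all genes passed, 13 of them higher. The log2 differences from Fadd fl/fl were 0.97 in CASP8 IEC-KO Mlkl -/- and 2.50 in FADD IEC-KO Mlkl -/- for Oasl2, 1.13 and 2.17 for Rtp4, 0.44 and 1.99 for Ifit1 and 0.44 and 1.53 for Irf7. They were 0.23 and 1.41 for Isg15, 0.45 and 0.76 for Oas1a and 0.37 and 0.64 for Oas1g, in the same order of groups. With the clock score as a covariate the median of the 25 between the double mutants was −0.78, and all 25 were negative.

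Immune lists next to it had smaller medians and 0 members past the threshold in the fit over all arrays. With only the arrays of the double mutants some members passed. These included Igtp of the interferon-gamma list (adjusted p = 0.0384) and H2-DMb1 of the antigen presentation list (adjusted p = 0.041, limma). Ido1, H2-DMb2, Cd79a and Cd79b, of the same lists or the B cell markers, passed in no alternative fit. Interferon-gamma response genes had a median of −0.28, with 16 of 18 negative, and list means of 6.27 to 6.50 in CASP8 IEC-KO Mlkl -/- and 6.53 to 6.83 in FADD IEC-KO Mlkl -/-. Antigen presentation genes had a median of −0.36, with 15 of 17 negative. B and plasma cell markers had a median of −0.48, with 16 of 17 negative, and list means of 5.70 to 6.08 in CASP8 IEC-KO Mlkl -/-, against 6.34 to 6.62 in FADD IEC-KO Mlkl -/- and 5.82 to 6.51 in Fadd fl/fl. The double mutants did not overlap in these 3 lists, and the floxed range of the B cell markers covered most of both. Among single members, the arrays did not overlap for 2 of 18, 3 of 17 and 8 of 17, in the order of the lists. Each had the Casp8-deleted arrays below, against 2.59% of all genes in that direction. Cd79a, part of the B cell receptor, differed by −0.97 (adjusted p = 0.470) and Mzb1, a chaperone of antibody-making cells, by −0.79 (adjusted p = 0.356). The share of the B cell markers in other results was not tested. Neutrophil genes had a median of 0.04, cytokines and chemokines −0.04, macrophage genes −0.09 and T and NK cell genes −0.02. Each had overlapping groups and 0 members past the threshold in the fit over all arrays. The macrophage gene Itgax passed with only the arrays of the double mutants (adjusted p = 0.0361, limma). Ccl8, Lyz1 and Zap70 passed with variance weights per group, while Il6, Trem3, Ltf and Cd4 passed in no alternative fit.

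**Figure D2:**
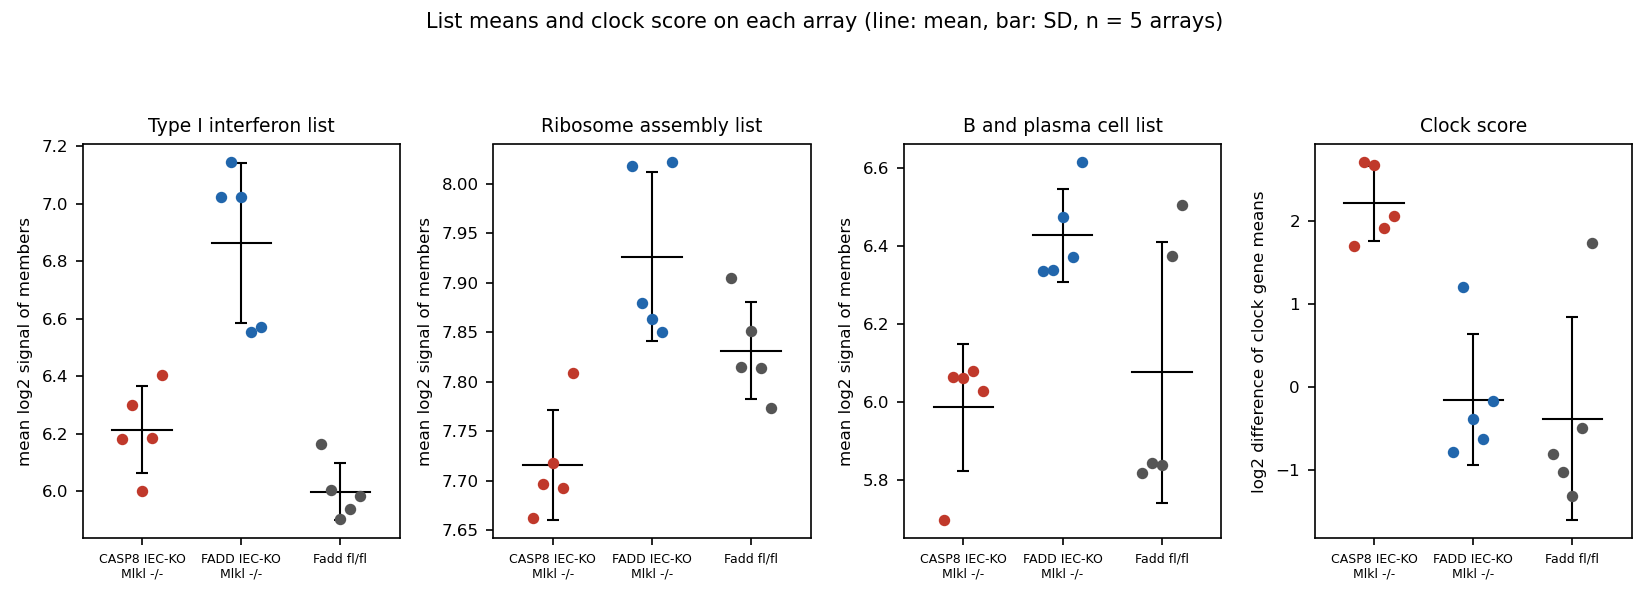
Mean log2 signal of the type I interferon, ribosome assembly and B and plasma cell lists, and the clock score (vertical axes), on each array of CASP8 IEC-KO Mlkl -/-, FADD IEC-KO Mlkl -/- and Fadd fl/fl (points; line, mean; bar, SD; n = 5). The double mutants do not overlap in any of the 4 panels; the clock score of FADD IEC-KO Mlkl -/- replicate 12 is 1.20 and that of Fadd fl/fl replicate 30 is 1.74.

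Genes of ribosome assembly held more of the falls than any other list described here, each of which had at most 1. In a list of 62 nucleolar and ribosome maturation genes, written after the values were seen and therefore no evidence on its own, 10 of the 59 measured were lower and 0 higher, against 0.241% lower over all genes. These were Mphosph10 (−0.61), Nop2 (−0.53), Grwd1 (−0.50), Urb1 (−0.49), Bysl (−0.49), Nolc1 (−0.47), Mak16 (−0.46), Ddx21 (−0.42), Fbl (−0.38) and Bms1 (−0.33). Nop2, a methyltransferase of ribosomal RNA whose E-box is shown above, had 7.88, 7.67, 7.97, 7.69 and 8.08 in CASP8 IEC-KO Mlkl -/-, against 8.54, 8.16, 8.33, 8.25 and 8.67 in FADD IEC-KO Mlkl -/- and 8.01 to 8.28 in Fadd fl/fl. The floxed arrays stood between or overlapped the ends of both groups (adjusted p = 0.018, 5 of 10 fits). Fbl, fibrillarin, another RNA methyltransferase of the nucleolus, ran from 8.98 to 9.37 in CASP8 IEC-KO Mlkl -/- and from 9.39 to 9.67 in FADD IEC-KO Mlkl -/- (adjusted p = 0.0208, 4 of 10 fits). The 10 called members passed in 1 to 6 of the 10 fits that left out an array and in 0 with the clock score as a covariate. The list mean was 7.66 to 7.81 in CASP8 IEC-KO Mlkl -/-, against 7.85 to 8.02 in FADD IEC-KO Mlkl -/- and 7.77 to 7.90 in Fadd fl/fl, and 53 of 59 differences were negative with a median of −0.21. The arrays did not overlap for 14 of the 59, each with the Casp8-deleted arrays below, against 2.59% of all genes in that direction. With the covariate 44 of 59 were negative, with a median of −0.16. The ribosomal proteins themselves stood the other way, with 12 of 13 positive, a median of 0.07 and 0 members past the threshold.

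Other lower genes act in the secretory pathway and in signalling. Tmed5, a cargo receptor of vesicles that leave the endoplasmic reticulum, differed by −0.51 (adjusted p = 0.018, 6 of 10 fits), and by −0.62 with the clock score as a covariate (adjusted p = 0.00821). Sec13, a coat protein of the same vesicles, differed by −0.40 and Lrrc59, a membrane protein of that compartment, by −0.59. Of 16 endoplasmic reticulum stress genes 14 were negative and 0 passed in the fit over all arrays, with a median of −0.26. List means were 8.45 to 8.54 in CASP8 IEC-KO Mlkl -/- and 8.58 to 9.02 in FADD IEC-KO Mlkl -/-. Hspa5, of that list, stayed above the threshold in 14 of 20 alternative fits and passed in the others. Syk, a tyrosine kinase that acts below immune receptors, ran from 7.94 to 8.23 in CASP8 IEC-KO Mlkl -/- and from 8.33 to 8.67 in FADD IEC-KO Mlkl -/- (−0.49, adjusted p = 0.0193, 5 of 10 fits). Ksr1, a scaffold of the MAP kinase cascade, differed by −0.53 and Nfatc2, a transcription factor driven by calcium, by −0.37. Mid1ip1, which promotes fatty acid synthesis, differed by −0.64 (adjusted p = 0.0303, 3 of 10 fits). Of 16 sterol and lipid synthesis genes 14 were negative, 0 passed and the median was −0.34.

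Bhlhe40 and Fosb were the lower genes that answer to the clock or to acute stimuli. Bhlhe40, a repressor within the clock network, had 9.94, 9.69, 9.90, 9.90 and 9.83 in CASP8 IEC-KO Mlkl -/-, against 10.49, 10.38, 10.37, 10.79 and 10.63 in FADD IEC-KO Mlkl -/- and 10.09 to 10.46 in Fadd fl/fl. The Casp8-deleted arrays lay below all others, and the floxed array nearest to them was replicate 30 (−0.68, SE 0.116, adjusted p = 0.00272, 10 of 10 fits). With the clock score as a covariate the difference was −0.46 (adjusted p = 0.0791). Fosb, an AP-1 subunit induced within the hour by many stimuli, had 6.77, 6.94, 6.89, 7.06 and 6.92 in CASP8 IEC-KO Mlkl -/-, against 7.55, 7.13, 7.83, 7.80 and 8.02 in FADD IEC-KO Mlkl -/- and 6.54 to 7.62 in Fadd fl/fl. The double mutants did not overlap (−0.75, SE 0.163, adjusted p = 0.0233, 4 of 10 fits). It was the only 1 of 19 immediate early genes past the threshold in the fit over all arrays, against 0.457% of all genes. Of the 19, 17 were negative, and the median was −0.15. Nr4a1, of the same list, passed with only the arrays of the double mutants. It also passed without the dimmest 40% of genes and with variance weights per group.

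Of the 17 clock genes Bhlhe40 alone passed in the fit over all arrays, against 0.457% of all genes. Dbp and Ciart nevertheless differed by more than any of the 89 genes. Per1 and Tef passed with only the arrays of the double mutants, without the dimmest 40% of genes and with variance weights per group. The lowest adjusted p was 0.00648 for each (limma), and Per1 also passed after quantile normalization. Per1 stayed above the threshold in 16 of 20 alternative fits and Tef in 17 of 20. Dbp, a transcription factor driven by the clock, had 9.03, 7.99, 8.02, 9.25 and 8.92 in CASP8 IEC-KO Mlkl -/-, against 11.44, 9.99, 11.42, 11.72 and 11.23 in FADD IEC-KO Mlkl -/- and 9.54 to 11.74 in Fadd fl/fl (−2.52, SE 0.719, adjusted p = 0.0941). Ciart, a clock repressor with 3 E-boxes in the stretch shown above, differed by −2.37 (adjusted p = 0.0901), Per1 by −0.79 (adjusted p = 0.0652) and Tef by −0.97 (adjusted p = 0.0698). Arntl, which encodes BMAL1, stood the other way, with 8.95, 9.56, 9.51, 8.99 and 9.04 in CASP8 IEC-KO Mlkl -/-, against 7.48, 8.45, 7.69, 7.33 and 7.56 in FADD IEC-KO Mlkl -/- and 7.24 to 9.19 in Fadd fl/fl (1.51, adjusted p = 0.0792). In 11 of the 17 the double mutants did not overlap, 9 with the Casp8-deleted arrays below and 2 above (Arntl and Clock). Over all genes these shares were 2.59% below and 2.37% above. Fadd fl/fl replicate 30 stood apart from the other floxed arrays in Dbp, Ciart and Arntl, on the side of CASP8 IEC-KO Mlkl -/-.

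Among the genes higher with the Casp8 deletion, Ypel2 and Bco2 had the larger differences. Ypel2, of the yippee-like family of small nuclear proteins, had 7.63, 7.93, 7.57, 7.47 and 7.48 in CASP8 IEC-KO Mlkl -/-, against 6.48, 7.10, 6.51, 6.40 and 5.51 in FADD IEC-KO Mlkl -/- and 6.34, 6.90, 7.00, 6.47 and 7.74 in Fadd fl/fl. The floxed array at 7.74 was replicate 30, and the other floxed arrays lay below all Casp8-deleted ones (1.21, SE 0.274, adjusted p = 0.0303, 4 of 10 fits). With the clock score as a covariate the difference was 0.51 (adjusted p = 0.341). Its relative Ypel3, a growth-restraining gene, ran from 9.55 to 9.84 in CASP8 IEC-KO Mlkl -/- and from 8.64 to 9.22 in FADD IEC-KO Mlkl -/- (0.74, adjusted p = 0.0378, 3 of 10 fits). Bco2, a mitochondrial enzyme that cleaves carotenoids, had 8.19, 7.91, 7.78, 7.60 and 8.10 in CASP8 IEC-KO Mlkl -/-, against 6.40, 7.28, 6.97, 6.98 and 6.48 in FADD IEC-KO Mlkl -/- and 6.87 to 7.71 in Fadd fl/fl. Here too the double mutants did not overlap, and the floxed arrays reached into both (1.09, SE 0.235, adjusted p = 0.0208, 5 of 10 fits).

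Il18, an epithelial cytokine of the interleukin-1 family that caspase-1 activates, had 10.71, 10.64, 10.66, 10.43 and 10.67 in CASP8 IEC-KO Mlkl -/-, against 9.62, 10.33, 9.85, 9.91 and 9.70 in FADD IEC-KO Mlkl -/- and 9.79 to 10.47 in Fadd fl/fl. Replicate 9 of CASP8 IEC-KO Mlkl -/- and replicate 12 of FADD IEC-KO Mlkl -/- were the nearest to each other, and the groups did not overlap (log2 difference 0.74, SE 0.184, adjusted p = 0.0496, 1 of 10 fits). With the clock score as a covariate the difference was 0.31 (adjusted p = 0.456). Of 22 inflammasome and pyroptosis genes Il18 alone passed, against 0.457% of all genes, and the median was 0.06. Casp1, Nlrp6, Nlrc4 and Gsdmd had differences of 0.02, 0.03, 0.03 and 0.06, and Pycard, the adaptor of inflammasomes, one of 0.26 (adjusted p = 0.226).

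Crip1, a LIM protein abundant in the gut, had narrow groups. It stood at 11.02, 11.05, 11.08, 11.05 and 10.98 in CASP8 IEC-KO Mlkl -/-, against 10.26, 10.24, 10.13, 10.17 and 10.07 in FADD IEC-KO Mlkl -/- and 10.50, 10.19, 10.55, 10.52 and 10.76 in Fadd fl/fl. The gap between the double mutants was wider than the range within either, and 4 of 5 floxed arrays lay in the gap (0.86, SE 0.214). The adjusted p was 0.0496 with the spread taken over all groups, and Crip1 passed in 0 of the 10 fits that left out an array (adjusted p 0.056 to 0.169). Gpr19, an orphan G protein-coupled receptor, had 7.08, 6.93, 6.98, 6.79 and 6.71 in CASP8 IEC-KO Mlkl -/-, against 6.44, 6.40, 6.64, 6.35 and 6.19 in FADD IEC-KO Mlkl -/- and 6.35 to 6.85 in Fadd fl/fl. Its difference of 0.49 (SE 0.089, adjusted p = 0.00511) passed in 10 of 10 fits and with the clock score as a covariate (0.49, adjusted p = 0.0325).

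Growth factor and transport genes were also among the rises. Grb7, an adaptor of receptor tyrosine kinases, ran from 8.87 to 9.13 in CASP8 IEC-KO Mlkl -/- and from 7.82 to 8.52 in FADD IEC-KO Mlkl -/- (0.66, adjusted p = 0.0473, 2 of 10 fits). Erbb2, one of the receptors it binds, ran from 9.55 to 9.78 in CASP8 IEC-KO Mlkl -/- and from 8.87 to 9.48 in FADD IEC-KO Mlkl -/- (0.43, adjusted p = 0.0378, 3 of 10 fits). Thra, the thyroid hormone receptor alpha, differed by 0.47. Nupr1, a stress-induced chromatin protein, ran from 9.36 to 9.97 in CASP8 IEC-KO Mlkl -/- and from 8.76 to 9.28 in FADD IEC-KO Mlkl -/- (0.69, adjusted p = 0.0496, 2 of 10 fits). Pkhd1, which encodes fibrocystin of primary cilia, differed by 0.72 (adjusted p = 0.0291, 5 of 10 fits), and Npy4r, a receptor of pancreatic polypeptide, by 0.58 (adjusted p = 0.0496, 0 of 10 fits). Slc16a1, the transporter through which colonocytes take up butyrate, was the only 1 of 27 colonocyte genes past the threshold (0.457% of all genes). It ran from 10.63 to 10.89 in CASP8 IEC-KO Mlkl -/- and from 10.11 to 10.52 in FADD IEC-KO Mlkl -/- (0.46, adjusted p = 0.0415, 2 of 10 fits). Slc9a3, the sodium-proton exchanger of colonocytes, had a larger difference of −1.76 that did not pass (adjusted p = 0.0622), and the list median was −0.04.

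**Figure D3:**
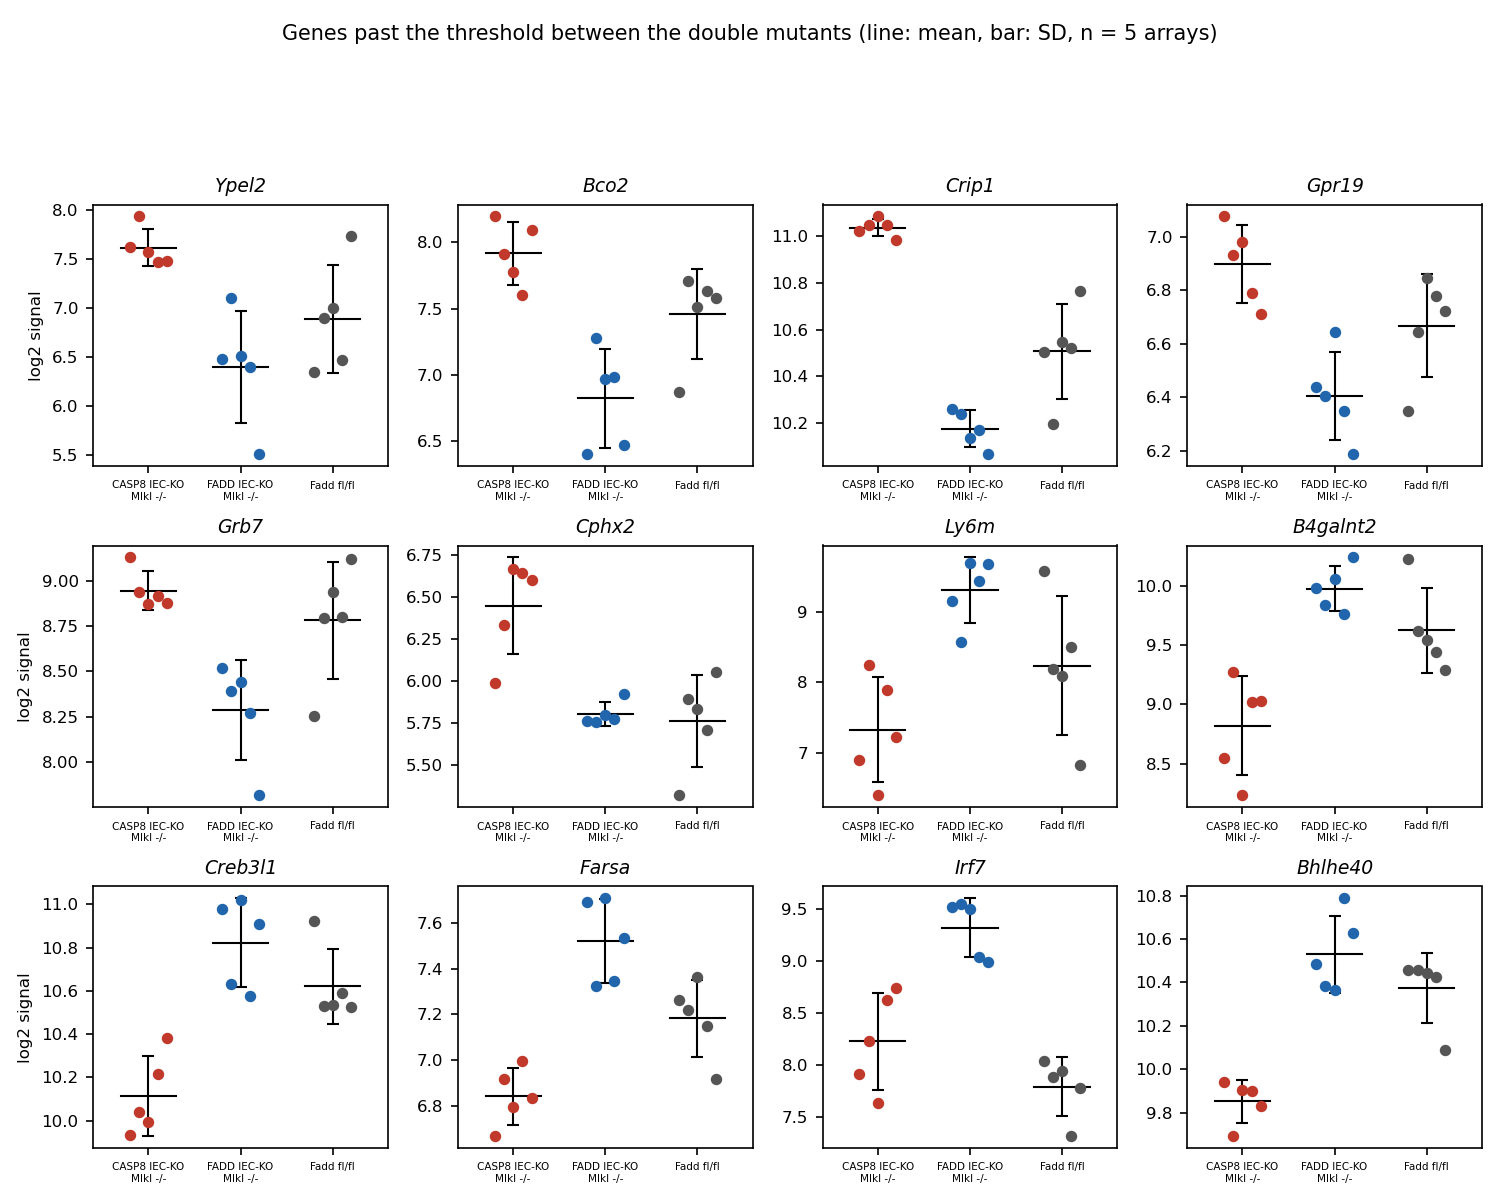
Log2 signal (vertical axes) of 12 genes past the threshold on each array of CASP8 IEC-KO Mlkl -/-, FADD IEC-KO Mlkl -/- and Fadd fl/fl (points; line, mean; bar, SD; n = 5). Ypel2, Bco2, Crip1, Gpr19, Grb7 and Cphx2 are higher and Ly6m, B4galnt2, Creb3l1, Farsa, Irf7 and Bhlhe40 lower in CASP8 IEC-KO Mlkl -/-, with no overlap between the double mutants; the Fadd fl/fl mean lies between theirs except in Cphx2 and Irf7.

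The Fadd fl/fl level lay nearer to one or the other double mutant. That group carries the floxed Fadd allele, so for CASP8 IEC-KO Mlkl -/- deletion and mouse line cannot be told apart in these comparisons either. Of the 41 higher genes other than Fadd, the CASP8 IEC-KO Mlkl -/- mean was the nearer to the Fadd fl/fl mean for 27 and the FADD IEC-KO Mlkl -/- mean for 14. Of the 46 lower genes other than Casp8, CASP8 IEC-KO Mlkl -/- was the nearer for 29 and FADD IEC-KO Mlkl -/- for 17. Tested against Fadd fl/fl, 9 genes passed in CASP8 IEC-KO Mlkl -/- (0.0462%) and 31 in FADD IEC-KO Mlkl -/- (0.159%); both contrasts use the same floxed arrays, and the difference in number was not tested. In CASP8 IEC-KO Mlkl -/- the 9 were Casp8 (−1.27), Mlkl (−0.93), Prelid2 (−0.78), Atp2c2 (−0.47), Dhx16 (−0.40), Tmem181b-ps (−0.33), 1110059E24Rik (0.56), Cphx2 (0.68) and Plac9a (0.70). In FADD IEC-KO Mlkl -/- 13 were higher and 18 lower. Mlkl (−1.07), Fadd (−1.02) and Atp2c2 (−0.38) were among the lower ones, and besides the interferon genes above the higher ones included Aqp4, a water channel (1.29), Apol9a (0.87), Irf9, a transcription factor of the interferon receptor (0.79), and Mt1, a metallothionein (0.55).

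Markers of other tissues were compared because colon tissue can carry them. Pancreas and small intestine markers had list means of 6.86, 6.51, 6.25, 6.46 and 6.47 in CASP8 IEC-KO Mlkl -/-, against 6.21 to 6.28 in FADD IEC-KO Mlkl -/- and 6.20 to 6.39 in Fadd fl/fl. Replicate 6 of the Casp8 deletion was the high one, 10 of 13 differences were positive, the median was 0.32 and 0 members passed. Adipocyte markers had list means of 5.22, 5.98, 5.54, 4.97 and 4.67 in CASP8 IEC-KO Mlkl -/-, against 5.03 to 5.22 in FADD IEC-KO Mlkl -/-, with replicate 7 of the Casp8 deletion the high one, a median of 0.19 over 7 measured and 0 members past the threshold. Smooth muscle genes had a median of 0.11 with 16 of 18 positive and overlapping list means (9.95 to 10.27 in CASP8 IEC-KO Mlkl -/-, 9.89 to 10.20 in FADD IEC-KO Mlkl -/-). Without replicates 6 and 7 together, which was tried after the values were seen, 9 genes passed, 6 higher and 3 lower. Goblet cell and colonocyte list means were 9.30 to 9.52 and 9.72 to 10.06 in CASP8 IEC-KO Mlkl -/-, 9.46 to 9.72 and 9.92 to 10.09 in FADD IEC-KO Mlkl -/-, on arrays whose medians ran from 6.41 to 6.47, so markers of the colon epithelium were present in each group. By Y-linked genes each double mutant held 3 male and 2 female mice.

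Several called genes were chromosomal neighbours, as ordered in RefSeq assembly GRCm38.p6. Counting each called gene only with the next called gene along the chromosome, 12 pairs stood within 12 genes of each other, 11 of them changed in the same direction, made up of 18 genes. On chromosome 9 Bco2, Il18 and Tex12 follow one another and were all higher, Tex12 at the low signals of 3.55 to 4.13 in CASP8 IEC-KO Mlkl -/- and 2.55 to 3.59 in FADD IEC-KO Mlkl -/-. On chromosome 11 Fbxl20, Erbb2, Grb7 and Thra were higher, 4 of 22 genes in that stretch, in which 11 differences were positive. On chromosome 6 Bcl2l14, Crebl2 and Gpr19 were higher, 3 of 7 genes in their stretch, all 7 with a positive difference. Nupr1 and Ypel3 stood on chromosome 7, with 7 of 8 differences positive between and including them. No test of clustering along chromosomes was made.

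A cluster on chromosome 14 held Plac9a, Cphx1, Cphx2 and Plac9b, all higher and 4 of the 5 genes in the stretch. Cphx1 and Cphx2, homeobox genes best known from the early embryo, and Plac9a and Plac9b are near-identical copies, so signal may be shared between their probe sets and each value is uncertain. Cphx2 had 5.99, 6.34, 6.66, 6.65 and 6.60 in CASP8 IEC-KO Mlkl -/-, against 5.76, 5.76, 5.80, 5.78 and 5.93 in FADD IEC-KO Mlkl -/- and 5.32 to 6.05 in Fadd fl/fl. Replicate 6 of the Casp8 deletion stood just above the highest Fadd-deleted array, and the other 4 were higher (0.64, SE 0.128, adjusted p = 0.0164, 9 of 10 fits). Cphx1 differed by 0.73 (adjusted p = 0.018, 5 of 10 fits), with replicate 6 at 5.46, level with the highest Fadd-deleted array.

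Genes near the targeted loci were counted as well. Of the 16 genes within 8 positions of Casp8 and of the 16 within 8 of Fadd 0 passed. Of the 16 within 8 of Mlkl 1 passed, Fa2h, the gene next to Mlkl. Over all genes 0.457% passed, so 0 of 16 is no result about a locus. Rftn2, which encodes a raft protein and was higher by 0.45 (adjusted p = 0.018), lies on chromosome 1 with 23 genes between it and Casp8.

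Ermap, which encodes a red cell membrane protein related to butyrophilins, had the largest difference among the 89 genes and a split that ran through the groups. It stood at 7.18, 5.48, 5.49, 5.13 and 5.44 in CASP8 IEC-KO Mlkl -/-, against 7.64, 7.48, 8.17, 7.96 and 8.22 in FADD IEC-KO Mlkl -/- (−2.15, SE 0.521, adjusted p = 0.0473, 2 of 10 fits). Fadd fl/fl held both levels, at 5.36, 5.42, 8.13, 8.00 and 5.46. The split was also present in the groups with Mlkl intact. FADD IEC-KO stood at 7.62, 6.34, 7.30, 5.39 and 7.33 in the numbers 1 to 30 and at 7.48, 7.77, 5.71, 8.01 and 7.48 in the numbers 86 to 124. CASP8 IEC-KO ran from 5.03 to 5.52 and from 5.19 to 5.60 in the same series, and Casp8 fl/fl from 5.21 to 5.80. FADD IEC-KO Zbp1 -/- had 3 arrays from 6.99 to 7.51 and 2 at 5.35 and 5.32, and FADD IEC-KO RIPK3 IEC-KO had 2 at 7.86 and 7.58 and 3 from 5.30 to 5.37. Low values thus occurred in floxed mice of both kinds, and the high level was seen in 1 of 20 arrays labelled CASP8 IEC-KO, with or without Mlkl, or Casp8 fl/fl.

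**Figure D4:**
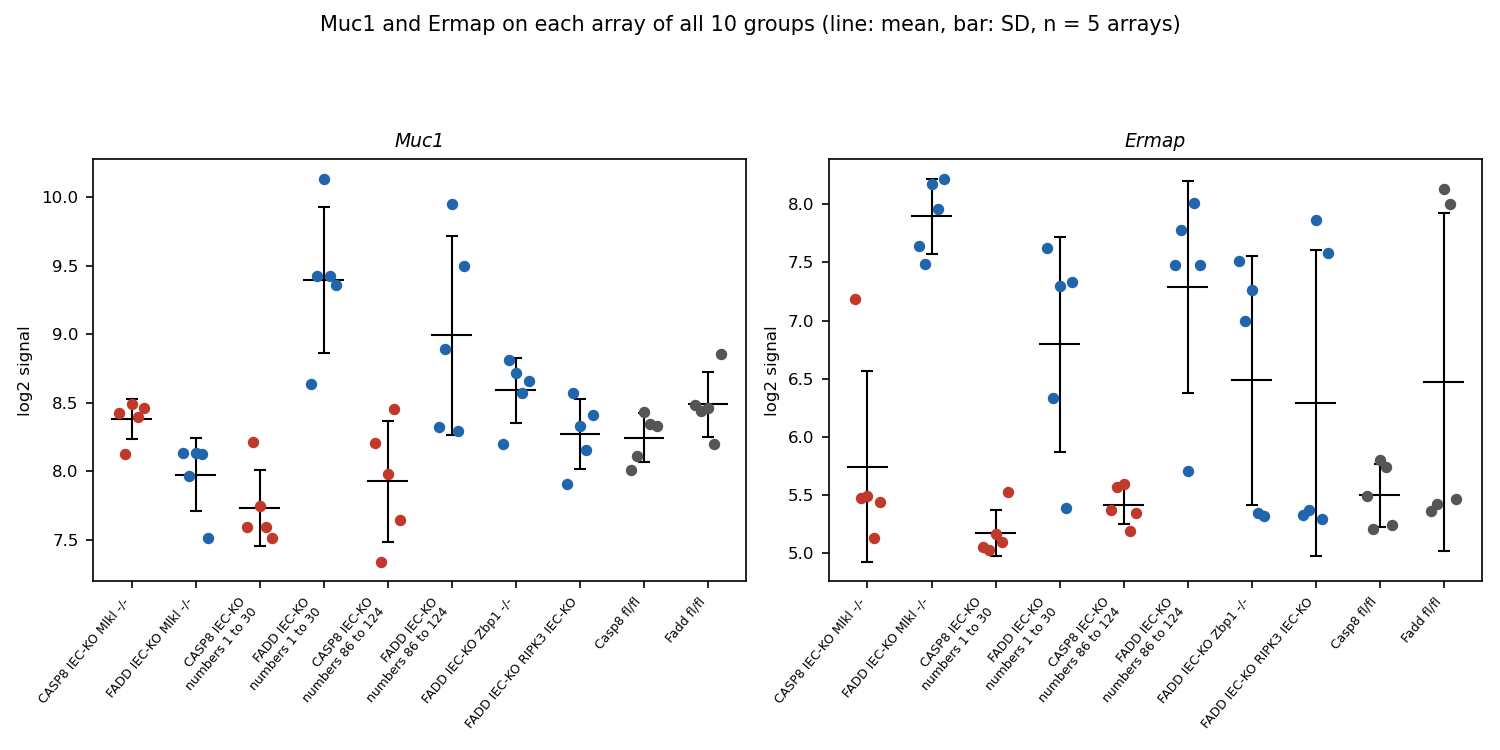
Log2 signal (vertical axes) of Muc1 and Ermap on each array of all 10 groups (points; line, mean; bar, SD; n = 5 arrays a group; red, CASP8 IEC-KO; blue, FADD IEC-KO; grey, floxed). Muc1 is high in FADD IEC-KO and not in the double mutants; Ermap falls into a low and a high level that both occur within several groups with floxed or deleted Fadd.

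The same pair of deletions with Mlkl intact was measured on arrays that the double mutants do not share. CASP8 IEC-KO and FADD IEC-KO differed in 1315 genes in the numbers 1 to 30 (6.75%) and in 32 in the numbers 86 to 124 (0.164%). The first count was 236 without FADD IEC-KO replicate 22 and 2416 without replicate 21. In a fit of the 20 single knockout arrays alone the counts were 14 and 7, all of them among the calls of the fit over all arrays, with 3141 and 1256 genes at an unadjusted p under 0.05. Of the 87 genes that separated the double mutants, 78 had the same sign in the numbers 1 to 30 (89.7%, against 58.4% of all genes) and 27 in the numbers 86 to 124 (31.0%, against 49.8% of all genes). In the first series 15 of the 87 passed, all with the same sign: B4galnt2, Bco2, Ccpg1os, Crebl2, Crip1, Ddx21, Ermap, Farsa, Fbl, Lrrc51, Lrrc59, Npy4r, Rftn2, Sec13 and Slc16a1. With the 20 single knockout arrays alone 0 of the 87 passed in that series. In the second series 1 passed in both fits, Slc6a8, the creatine transporter, which was lower by 0.53 between the double mutants (log2 difference −0.53) and higher by 0.79 in the single knockouts. Across all genes the differences of the double mutants had a Pearson correlation of 0.28 with those of the numbers 1 to 30 and 0.08 with those of the numbers 86 to 124, as a description over genes that are not independent of each other.

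The named genes showed the same unevenness between the series. Farsa differed by −0.68 between the double mutants, by −0.53 in the numbers 1 to 30 (adjusted p = 0.00494) and by 0.12 in the numbers 86 to 124 (adjusted p = 0.778). Crip1 differed by 0.86 between the double mutants, by 0.85 (adjusted p = 0.0125) and by 0.15 (adjusted p = 0.859) in the same series. B4galnt2 differed by −1.15 between the double mutants, by −0.96 (adjusted p = 0.0121) and by −0.52 (adjusted p = 0.455). With the 20 single knockout arrays alone the adjusted p in the numbers 1 to 30 was 0.120 for Farsa, 0.195 for Crip1 and 0.0814 for B4galnt2. Bhlhe40, Fosb, Ypel2 and Ly6m, which separated the double mutants, had differences of −0.02, 0.08, 0.04 and −0.31 in the numbers 1 to 30 and did not pass there. Fosb, Ypel2 and Ly6m had differences of 0.06, −0.41 and 0.18 in the numbers 86 to 124, and Bhlhe40 did not pass there (adjusted p = 0.997). All 25 type I interferon genes were negative in the numbers 1 to 30 as well, with a median of −0.32 and 4 past the threshold, and their median was −0.29 with 0 past it in the numbers 86 to 124. The ribosome assembly list had medians of −0.12 and 0.03, with 5 and 0 members lower. With the 20 single knockout arrays alone 0 members of either list passed in either series.

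**Figure D5:**
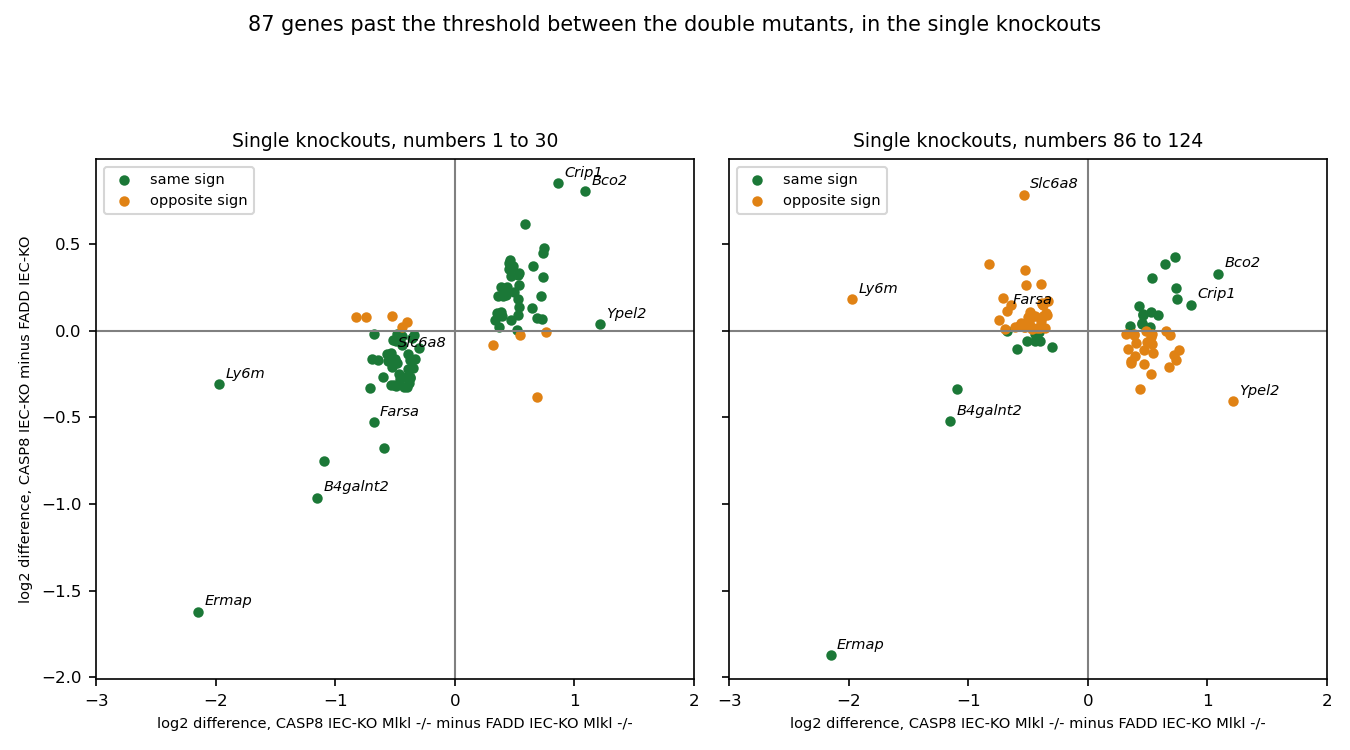
Each point is 1 of the 87 genes that separated the double mutants; horizontal axis, log2 difference between CASP8 IEC-KO Mlkl -/- and FADD IEC-KO Mlkl -/-; vertical axis, log2 difference between CASP8 IEC-KO and FADD IEC-KO in the numbers 1 to 30 (left) and 86 to 124 (right). The sign is shared by 78 of 87 genes on the left and 27 of 87 on the right.

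With Mlkl intact, immune and smooth muscle lists had large medians in the numbers 1 to 30 and smaller ones in the numbers 86 to 124. In the numbers 1 to 30 interferon-gamma response genes had a median of −1.33 with 17 of 18 lower, antigen presentation genes −1.11 with 16 of 17 lower and neutrophil genes −1.16 with 12 of 17 lower in CASP8 IEC-KO, and smooth muscle genes a median of 0.91 with all 18 higher. With the 20 single knockout arrays alone 0, 1, 0 and 0 members of these lists passed. In the numbers 86 to 124 the medians were −0.63, −0.70, −0.63 and 0.24, with 0 members past the threshold in any. The medians of the same lists between the double mutants were −0.28, −0.36, 0.04 and 0.11, with 0 members past the threshold in any. No test of a whole list was made.

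Whether the difference between the deletions depended on Mlkl was tested gene by gene against the single knockouts of the numbers 1 to 30. The interaction passed for 3 genes (0.0154%), while 2142 had an unadjusted p under 0.05, and 116 passed without FADD IEC-KO replicate 21. With only the arrays of the groups compared Muc1 alone passed. Muc1, a membrane mucin of epithelia, stood at 8.43, 8.13, 8.49, 8.40 and 8.46 in CASP8 IEC-KO Mlkl -/-, against 8.13, 7.97, 8.14, 8.13 and 7.52 in FADD IEC-KO Mlkl -/-. With Mlkl intact it stood at 7.60, 8.21, 7.75, 7.60 and 7.52 in CASP8 IEC-KO and at 8.63, 9.43, 10.13, 9.43 and 9.36 in FADD IEC-KO. The high values were those of FADD IEC-KO with Mlkl intact, and the difference was 0.41 between the double mutants (adjusted p = 0.536) and −1.66 between the single knockouts (adjusted p = 1.05e-05). The interaction was 2.07 (SE 0.318, adjusted p = 0.00109, and 0.00432 with only the arrays compared). In the numbers 86 to 124 the single knockouts differed by −1.06 in Muc1 (adjusted p = 0.0229, and 0.451 with the 20 single knockout arrays alone).

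Zfp532, a zinc finger gene, and Rps14, a protein of the small ribosomal subunit, were the other 2, with adjusted p-values of 0.103 and 0.115 with only the arrays compared. Zfp532 ran from 5.44 to 5.85 in CASP8 IEC-KO Mlkl -/- and from 5.48 to 5.81 in FADD IEC-KO Mlkl -/-, and with Mlkl intact from 5.86 to 6.19 in CASP8 IEC-KO and from 4.29 to 5.37 in FADD IEC-KO. Its interaction was −1.15 (SE 0.209, adjusted p = 0.0105), from a difference of 0.09 between the double mutants and 1.24 between the single knockouts, against 0.38 in the numbers 86 to 124 (adjusted p = 0.357). Rps14 ran from 10.16 to 10.35 in CASP8 IEC-KO Mlkl -/- and from 10.03 to 10.26 in FADD IEC-KO Mlkl -/-, and with Mlkl intact from 9.83 to 10.06 in CASP8 IEC-KO and from 10.14 to 10.47 in FADD IEC-KO. Its interaction was 0.52 (SE 0.093, adjusted p = 0.0105), and the single knockouts differed by −0.39 in the numbers 1 to 30 and by 0.05 in the numbers 86 to 124. Cmtm6, Defa31 and Kcnn2 came next with adjusted p-values of 0.0958, 0.0958 and 0.0994. Type I interferon, clock and ribosome assembly genes had 0 members past the threshold in this test. Only 0.0154% of all genes passed it, so that is no result about these lists. Their median interactions were −0.22, −1.04 and −0.12. The clock list had a median of −0.73 between the double mutants. Between the single knockouts it was 0.23 in the numbers 1 to 30 and 0.20 in the numbers 86 to 124.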

How the data were processed

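The series held 50 arrays in 10 groups of 5. The deposited table gives 1 value per probe set and array on a log2 scale, processed by the authors with Affymetrix Expression Console and Transcriptome Analysis Console per the submitters' processing notes. Not given in the sources used here are the tools' versions, the summarisation, the background correction, the normalization and the genome build. Of 22142 probe sets, 19527 had 1 gene symbol in the platform annotation and 2615 had none. Where a symbol had several, the brightest on average was kept, which left 19494 genes. Values were used as deposited. Array medians of the double mutants and Fadd fl/fl were close, and the number of arrays limits the precision. Within each double mutant group no 2 arrays were duplicates (pairwise Pearson correlation 0.991 to 0.994).

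Group means were fitted to all 50 arrays with limma 3.58.1 in R 4.3.3 (lmFit, contrasts.fit, eBayes, two-sided, 40 residual degrees of freedom), with Benjamini-Hochberg adjustment over all genes and a threshold of 0.05. The code was tested on simulated data. Differences are CASP8 minus FADD on the log2 scale. Gene lists (37, and 1 on ribosome assembly written after the values were seen) were described by counts and medians and not tested. The members and lists were chosen with earlier results of these data known. The genes named were the 5 necroptosis genes, the 12 largest changes each way among called genes with separate arrays (predicted and sex-linked genes aside), the 6 genes with the smallest interaction p, called genes beside a targeted locus, up to 4 called members a list (2 by size where none was called), and up to 3 clock, immediate early or sex-linked genes. Other names (all genes of a count, neighbours, promoter examples, and lower genes of the secretory and signalling paragraph) were chosen after their values were seen. Alternatives were other sets of arrays, quantile normalization, a filter on dim genes, other moderation, variance weights per group, covariates for sex and for the clock score, probe set means, a 2-fold requirement and leaving out arrays. Replicates are named by their title numbers.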

Additional observations from a re-analysis of the deposited data

Results flagged for a closer look

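In 21 of 278 groups of 5 arrays tested, 1 array stood apart from the other 4 by Dixon's criterion, which chance alone does in about 1 in 20 groups. In CASP8 IEC-KO Mlkl -/- replicate 6 stood apart in Ermap (7.18), Grb7 (9.13) and Slc16a1 (10.89) and in the means of the antigen presentation (8.01), B and plasma cell (5.70) and fatty acid oxidation (8.24) lists. Replicate 7 stood apart in Ccl8 (4.98), Muc1 (8.13), Npy4r (6.24) and Zfp532 (5.44), replicate 9 in Il18 (10.43) and in the mesothelium list mean (6.04), and replicate 10 in Fa2h (9.00) and Mid1ip1 (7.60).

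In FADD IEC-KO Mlkl -/- replicate 11 stood apart in Gap43 (5.57), replicate 12 in Alas2 (5.75), replicate 14 in the mean of the antimicrobial and epithelial stress list (7.45), and replicate 15 in Cd4 (7.09), Cphx2 (5.93), Muc1 (7.52) and Vcam1 (6.85). The difference between the deletions changed with Mlkl, by the interaction term of the limma model, in Muc1 (2.07, adjusted p = 0.00109), Rps14 (0.52, adjusted p = 0.0105) and Zfp532 (−1.15, adjusted p = 0.0105). With only the arrays of the groups compared the adjusted p was 0.00432 for Muc1, 0.115 for Rps14 and 0.103 for Zfp532.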

How the results depend on the processing

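The count of genes that separated the double mutants (89, 42 higher and 47 lower in CASP8 IEC-KO Mlkl -/-) was 270 (124 higher, 146 lower) with only the 10 arrays of the double mutants and 731 (367 and 364) with variance weights per group. The median SD of a gene was 0.140 in CASP8 IEC-KO Mlkl -/- and 0.146 in FADD IEC-KO Mlkl -/-, against 0.157 to 0.200 in the other groups. It was 144 (65 and 79) after quantile normalization, 140 (68 and 72) with trend and robust moderation and 198 (93 and 105) without the dimmest 40% of genes, which tests fewer genes. It was 67 with the 30 arrays numbered 1 to 30, 70 with a sex covariate and 89 with probe set means. It was 7 (2 and 5) with a 2-fold requirement, 12 (6 and 6) with the clock covariate and 9 (6 and 3) without CASP8 IEC-KO Mlkl -/- replicates 6 and 7, which was chosen after seeing the data. Leaving out 1 array gave 8 to 114 genes, 3 to 55 higher and 4 to 60 lower. The cause of the smaller counts was not tested. No named gene past the threshold changed sign in any alternative. Of those not past it 8 did (Alas2, Cidec, Eif2s3y, Il6, Kdm5d, Ltf, Tac1 and Uty), without passing in the other direction. Of the values of single named genes 1806 kept their side of the threshold, 241 lost the call and 49 gained it.

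The median of the type I interferon list (−0.54) ran from −0.61 to −0.51 when 1 array was left out and was −0.78 with the clock score as a covariate. That of the clock list (−0.73) ran from −0.83 to −0.65 and was −0.089 with the covariate, which is made from its own members. That of the ribosome assembly list (−0.21) ran from −0.22 to −0.17. With only the arrays of the groups compared, the single knockouts differed in 14 genes in the numbers 1 to 30, 7 in the numbers 86 to 124 and 41 in the mean of both, and the interaction passed for 1. Over all arrays the counts were 1315, 32, 1000 and 3, and leaving out 1 array changed these to 236 to 2416, 14 to 101, 417 to 1795 and 2 to 116. The cause of the smaller counts with fewer arrays was not tested. No paired analysis was possible because the replicate numbers are not shared between the groups compared.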

Other observations

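Among the 2615 probe sets without a gene symbol, which entered no result above, 10 passed an adjusted p of 0.05 over all probe sets (0.382% of them), 7 higher and 3 lower in CASP8 IEC-KO Mlkl -/-. The 4 with the smallest p had log2 differences of 0.88, 0.88, 0.87 and 0.81, with a smallest adjusted p of 0.000236 (limma). With the clock score as a covariate 3 genes passed that had not passed without it, Arl14, an epithelial small GTPase (0.91), Pbld2 (0.66) and Arpc4, a subunit of the actin-nucleating Arp2/3 complex (−0.49).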
